A study of Rattus norvegicus with 4 samples.

Results

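The genes described here encode the protein parts of the ribosome. Cytosolic ribosomes carry small-subunit (Rps) and large-subunit (Rpl) proteins, and mitochondrial ribosomes carry a separate nuclear-encoded set (Mrps and Mrpl). Members were the probe sets whose annotation gave a single gene symbol starting with Rps, Rpl or Mrps, Mrpl and a number, or the symbols Rplp0 to Rplp2 and Rpsa, with the S6 kinase genes (Rps6k) left out. The rule used no measured value. It took 123 of 14217 named genes: 50 cytosolic genes with 57 probe sets and 73 mitochondrial genes with 97 probe sets, of 31042 probe sets in all.

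The arrays were one-colour Affymetrix rat arrays of the telencephalon, the front part of the embryonic forebrain, at E11.5, counted in embryonic days with midday of the plug as day 0.5. There were 2 arrays of wild-type rats and 2 of rats homozygous for the Pax6 mutant allele rSey2, all on a Sprague-Dawley background. Pax6 encodes a paired-box transcription factor that patterns the forebrain and eye, and the mutation was present in the whole embryo, not in the telencephalon alone. The design text speaks of 13 telencephalons and of a repeat in each genotype, so an array stands for pooled embryos, and whether each array had its own pool was not settled by the sources used here. Replicates are called biological in the labels, but no litter is named, so p-values reflect only how far these arrays differ, which may in part be technical.

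Cytosolic ribosomes translate the messenger RNAs that come from the nucleus, and their proteins are made in near-equal amounts, since 1 copy of nearly every protein enters each ribosome. Mitochondrial ribosomes translate the few proteins encoded by mitochondrial DNA, which are core subunits of the respiratory chain and the ATP synthase. Messenger RNAs of cytosolic ribosomal proteins typically begin with a C followed by a run of C and T (U in the RNA), the 5′ terminal oligopyrimidine or TOP motif, through which mTOR and the RNA-binding protein Larp1 set how much of the message is translated. Ribosomal protein genes have many processed pseudogenes and close copies in mammalian genomes, so a probe set of one gene can also bind RNA of a copy, and the attribution of single values is uncertain to that extent.

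Sequences around the annotated start of transcription are shown because a run of C and T near the start was found at unlike shares in both families. RefSeq promoters on the build GRCr8 were matched for 100 of the 123 genes through their Entrez identifiers. Each window holds 50 bases, the 30 before the annotated start and the first 20 of the transcript, and capitals mark a run of 8 or more C or T. The windows come from genes that the results below turn on, with Rpl11 as a cytosolic gene whose window holds no such run. In order, they lie at chr3:43165902-43165951 (minus strand), chr10:83272165-83272214 (minus), chr14:1995206-1995255 (minus), chr12:46718371-46718420 (minus), chr8:128728849-128728898 (plus), chr1:180009641-180009690 (minus), chr4:183000883-183000932 (plus), chr5:153560783-153560832 (minus), chr1:50384922-50384971 (plus), chr5:68668068-68668117 (minus) and chr11:44778637-44778686 (plus).
Rpl35: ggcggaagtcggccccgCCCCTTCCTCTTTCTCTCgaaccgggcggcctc
Rpl23: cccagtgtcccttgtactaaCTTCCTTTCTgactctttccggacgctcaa
Rpl5: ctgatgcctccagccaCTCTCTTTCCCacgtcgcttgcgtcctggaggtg
Rplp0: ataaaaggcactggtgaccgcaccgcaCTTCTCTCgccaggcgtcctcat
Rpsa: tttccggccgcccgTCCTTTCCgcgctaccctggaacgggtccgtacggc
Rps13: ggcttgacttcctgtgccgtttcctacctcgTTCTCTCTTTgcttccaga
Rps4y2: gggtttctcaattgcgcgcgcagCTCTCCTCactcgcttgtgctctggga
Rpl11: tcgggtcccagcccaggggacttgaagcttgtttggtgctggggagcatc
Mrpl18: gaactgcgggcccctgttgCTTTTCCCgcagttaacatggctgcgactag
Mrpl50: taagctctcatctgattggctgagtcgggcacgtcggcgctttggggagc
Mrps6: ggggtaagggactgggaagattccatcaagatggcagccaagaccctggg

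A C/T run of at least 8 bases on the sense strand reached into this window in 28 of 41 cytosolic promoters (68.3%). The share was 24.6% of the mitochondrial promoters (15 of 61, from 59 genes), close to the 24.8% of all protein-coding promoters in the table (5420 of 21842). The longest run among the members was 24 bases. A counted run need not hold the annotated start, and those of Rpsa, Rpl23 and Rpl5 end before it. The shares are therefore not shares of TOP motifs. Rpl35, a large-subunit protein near the exit of the nascent chain, had an 18-base run that spans the annotated start. A match is a description of the letters, and annotated starts may differ from those used in this tissue.

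The mitochondrial promoters stood out in other letters, searched on both strands over the 250 bases before and 50 bases after the start. The letters CCGGAAG, bound by ETS factors such as GABP, were found in 32.8% of mitochondrial, 24.4% of cytosolic and 10.7% of all protein-coding promoters. AAGATGGC, bound by YY1, was found in 23.0%, 9.76% and 3.68%, respectively. It contains ATG and may therefore lie over a start codon in some genes. CGCATGCG, bound by NRF1, a regulator of nuclear genes for mitochondrial proteins, was found in 9.84% of mitochondrial (6 of 61), 2.44% of cytosolic (1 of 41) and 2.11% of all protein-coding promoters. TATAAA was found at similar shares in all 3 sets (13.1%, 14.6% and 13.0%). The CCGGAAG letters read on the opposite strand can overlap a C/T run. These shares were not tested.

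**Figure D1:**
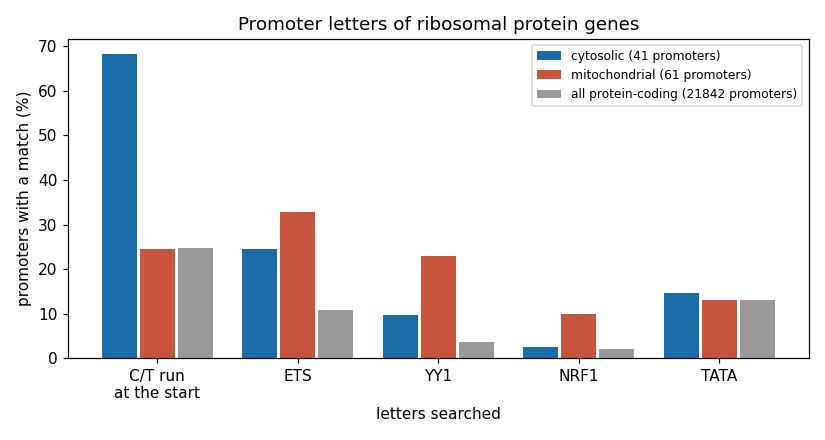
Share of promoters (percent, vertical axis) that hold each set of letters, for 41 cytosolic, 61 mitochondrial and 21842 protein-coding promoters. A C/T run near the annotated start was found in 68.3% of cytosolic promoters. The mitochondrial bars exceed the other bars for the ETS, YY1 and NRF1 letters.

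Expression values are log2 values after GCRMA, and every difference is mutant minus wild type on that scale. Probe sets with a mean below 3.21 over the 4 arrays (the lowest 40% of all probe sets) were left out as dim. This kept 146 of the 154 member probe sets and 120 of the 123 genes, 47 cytosolic and all 73 mitochondrial. The 3 genes without a tested probe set were Rpl30 of the large subunit, the muscle-type copy Rpl3l and the pseudogene Rps4x-ps1. Rpl3l lay at 2.13 in 3 arrays and 3.07 in mutant replicate 1, and Rps4x-ps1 at 2.09 in every array. A further 30 probe sets carried several ribosomal protein symbols and were assigned to no gene. Where a gene had several probe sets, the brightest one stood for it. Levels of different genes were compared only to mark probe sets as bright or dim.

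No member of either family passed the test for a genotype difference. The adjusted p was 1 for all 146 member probe sets (limma with Benjamini-Hochberg adjustment), and 0% of the 18625 tested probe sets passed. A probe set outside the members with a difference of -7.26 did not pass either. Failing this threshold with 2 arrays per genotype therefore does not show that a gene is unchanged. At an unadjusted p under 0.05, 3 member probe sets were lower in the mutant and 0 were higher, where 1.91% of all tested probe sets were lower and 1.74% higher. They were the single probe set of Rps13, which was 1 of 54 cytosolic probe sets, and the dimmer probe sets of Mrpl50 and Mrps18c, which were 2 of 92 mitochondrial probe sets. The count of 3 among 146 is near that background.

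The differences were small for most members. The size was under 0.1 in 41 of 47 cytosolic genes (87.2%) and 62 of 73 mitochondrial genes (84.9%), against 54.0% of all 9840 genes tested. The 95% interval of the difference lay within a 2-fold change in either direction for 46 cytosolic and 72 mitochondrial genes, the exceptions being Rps13 and Mrps18c. Over all genes tested this held for 88.0%. The median SE was 0.08 in cytosolic and 0.11 in mitochondrial genes. At a mean of at least 14, where most cytosolic genes lay, 85.4% of 178 other probe sets were within 0.1. The count was 37 of 38 in cytosolic genes. Other probe sets are all tested ones outside the members and those with several ribosomal protein symbols, including any without a gene symbol. Some may therefore read ribosomal protein RNA. At means from 9 to 13, where most mitochondrial genes lay, 61.0% of 6596 other probe sets were within 0.1. The share was 76.1% for the 92 mitochondrial probe sets at any level. These shares were not tested against each other.

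**Figure D2:**
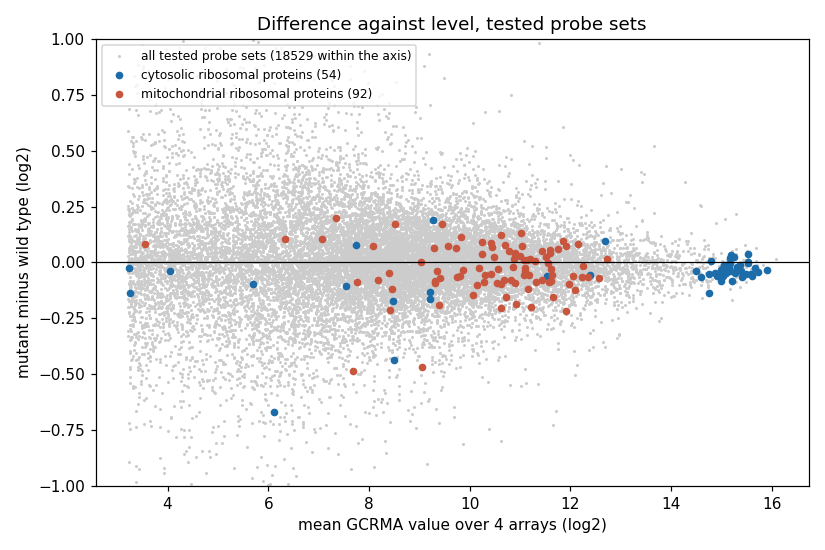
Difference between genotypes (mutant minus wild type, log2, vertical axis) against the mean GCRMA value over 4 arrays (log2, horizontal axis) for 54 cytosolic, 92 mitochondrial and all 18529 tested probe sets that fall within the axis; 96 lie beyond it. Most cytosolic probe sets crowd at the right near 15, where differences are small, and Rps13 lies lowest among the members at -0.67.

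The cytosolic genes leaned towards lower values in the mutant. The mutant mean was lower in 39 of 47 genes and higher in 8, with a median difference of -0.04 and quartiles of -0.06 and -0.02. Over all genes tested, 4829 of 9840 (49.1%) were lower, with a median of 0. Lower mutant means prevailed in both subunits, in 14 of 15 small-subunit genes (median -0.04) and 25 of 32 large-subunit genes (median -0.04). A median of -0.04 corresponds to a change of -2.62% in signal. The SD of the arrays' median deviations within a genotype, on the same scale, was 0.02.

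The lean rested on 1 array. Mutant replicate 2 was the lowest of the 4 arrays in 26 of 47 cytosolic genes (55.3%), against 21.3% of all genes tested. The median deviation from a gene's own mean was 0.01 in both wild-type arrays, 0.01 in mutant replicate 1 and -0.04 in mutant replicate 2. Without mutant replicate 2, 25 of 47 cytosolic genes (53.2%) were lower and the median difference was -0.01, beside 55.4% of all genes and a median of -0.02. Without mutant replicate 1, 40 of 47 were lower with a median of -0.06, beside 43.4% of all genes and a median of 0.02. Leaving out a wild-type array left 34 or 37 of 47 lower.

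Other bright probe sets also leaned lower, in a smaller share. Of the 178 other tested probe sets with a mean of at least 14, 111 (62.4%) were lower, with a median of -0.02. Beside them, 32 of 38 cytosolic genes at those levels were lower (median -0.04). Without mutant replicate 2 these counts were 91 of 178 and 20 of 38. The 30 probe sets with several ribosomal protein symbols did not share the lean: 16 were lower, and their median was -0.0019. Their count also followed the array left out, with 4 of 30 lower without mutant replicate 2 and 29 of 30 without mutant replicate 1.

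**Figure D3:**
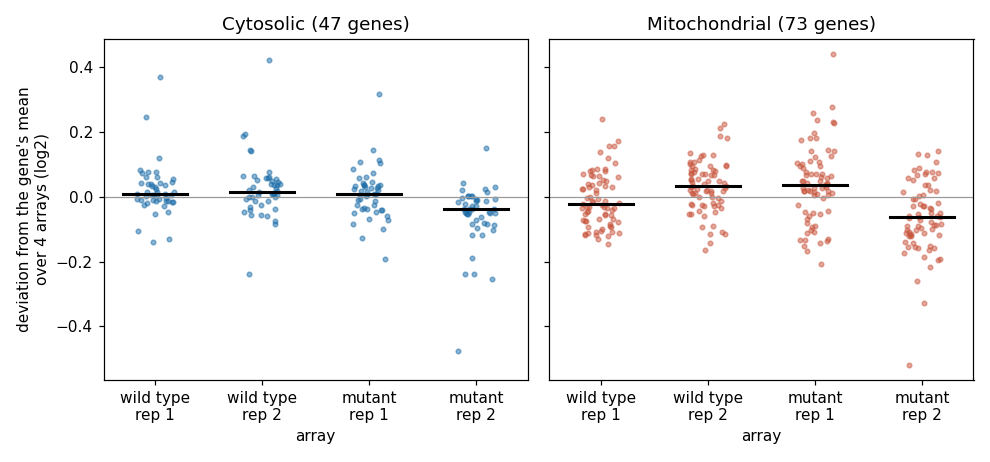
Deviation of each gene's value from its own mean over 4 arrays (log2, vertical axis), by array, for 47 cytosolic and 73 mitochondrial genes; points are genes and black bars are medians. The bar of mutant replicate 2 is the lowest in both panels, at -0.04 and -0.06, while the other bars lie between -0.02 and 0.04.

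Among cytosolic small-subunit genes, Rps13 showed the largest difference. Its values were 6.35 and 6.53 in wild type and 5.92 and 5.63 in the mutant, so the groups did not overlap. The difference was -0.67 ± 0.15 (SE, n = 2 per genotype), with a 95% interval from -1.12 to -0.22, and limma's adjusted p was 1. Leaving out 1 array at a time moved it between -0.81 and -0.53. The mean of this probe set was 6.11, where the median level of the tested cytosolic small-subunit genes was 15.16. Which part of the transcript this probe set covers is not given in the sources used here. How well it reads the Rps13 messenger RNA is therefore uncertain.

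Of the 15 tested small-subunit genes, 11 differed by less than 0.1 between genotypes; the others were Rps13, Rps4y2, Rps27l and Rps28. Rps28, chosen here after its values were seen, read 14.74 and 14.89 in wild type and 14.61 and 14.74 in the mutant (-0.14 ± 0.10), and its groups met. Rpsa, a small-subunit protein also known as the laminin receptor precursor, read 14.76 and 14.80 in wild type and 14.71 and 14.73 in the mutant (-0.05 ± 0.07). Of its other probe sets, one differed by -0.07 and one by 0.10, so its probe sets disagreed in direction. Rps29, a zinc-binding protein of the small subunit, read 15.92 and 15.90 against 15.89 and 15.87 (-0.03 ± 0.07). In both genes the mutant arrays lay just below the wild-type arrays on the brightest probe set.

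Rps6, the substrate of the S6 kinases, read 15.38 and 15.25 in wild type and 15.34 and 15.26 in the mutant (-0.02 ± 0.09), and its groups overlapped. Its sign depended on the normalization and on the array left out. Rps27l, a copy of Rps27 that p53 activates, read 9.58 and 8.97 against 9.32 and 8.97 (-0.13 ± 0.28). Its replicates differed more than the genotypes did.

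Rps4y2, a copy of the small-subunit gene Rps4x, was the single cytosolic gene with both mutant arrays above both wild-type arrays. It read 9.17 and 9.19 in wild type and 9.31 and 9.43 in the mutant (0.19 ± 0.08, 95% interval from -0.06 to 0.43). RefSeq places the rat gene on chromosome 4, at the window shown above. Its close similarity to Rps4x, which had no probe set of its own under the rule, leaves the source of the signal uncertain.

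Of 32 tested large-subunit genes, 30 differed by less than 0.1 between genotypes. The others, Rpl28 (-0.11 ± 0.18) and Rpl39l1 (-0.14 ± 0.12), were chosen here after their values were seen and had overlapping groups. Rpl39l1 had a mean of 3.25, just above the limit of 3.21 for dim probe sets. The 32 also include the pseudogene Rpl37-ps2, with a mean of 4.04. Rpl23, which can bind Mdm2, read 15.42 and 15.46 in wild type and 15.38 and 15.37 in the mutant (-0.06 ± 0.07). Rpl35 read 15.04 and 15.09 against 14.99 and 15.01 (-0.06 ± 0.07). Rplp0, the base of the stalk that recruits translation factors and a common reference gene in expression assays, read 15.40 and 15.42 against 15.35 and 15.40 (-0.04 ± 0.07). In these 3 genes the groups did not overlap, but the gaps were below the SE of the difference.

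Rpl5 and Rpl11, which travel with the 5S rRNA and can bind Mdm2 when ribosome assembly fails, both had overlapping groups. Rpl5 read 15.54 and 15.47 in wild type and 15.38 and 15.52 in the mutant (-0.05 ± 0.09). Rpl11 read 14.99 and 15.06 against 14.97 and 14.99 (-0.05 ± 0.07). The single largest departure in Rpl5 was mutant replicate 1, not mutant replicate 2.

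Rpl3, whose protein reaches towards the peptidyl transferase centre, read 15.65 and 15.69 in wild type and 15.61 and 15.68 in the mutant (-0.03 ± 0.08). Rpl22, an RNA-binding protein with a paralogue named Rpl22l1, read 14.86 and 14.93 against 14.86 and 14.83 (-0.05 ± 0.07). Rpl7l1, a Rpl7-like protein of large-subunit assembly, read 12.26 and 12.59 against 12.34 and 12.40 (-0.06 ± 0.15). All 3 had overlapping groups, and in Rpl7l1 the wild-type replicates differed from each other by more than the genotypes.

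Rpl39, a small protein of the exit tunnel, read 7.60 and 7.79 in wild type and 8.05 and 7.49 in the mutant (0.08 ± 0.24). Its mutant arrays were the highest and the lowest of the 4. No value is given for Rps19, Rps27, Rps4x, Rpl10, Rpl22l1, Rpl38, Rpl39l, Rplp1 or Rplp2, which no single-symbol probe set represented.

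**Figure D4:**
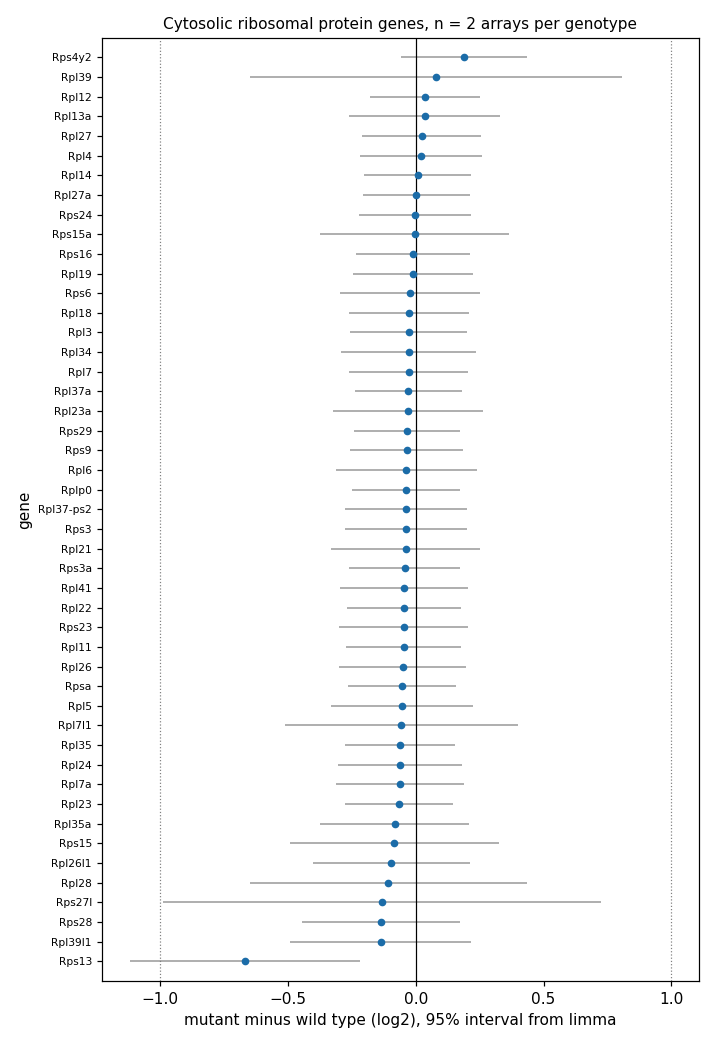
Difference between genotypes (mutant minus wild type, log2, horizontal axis) for the 47 tested cytosolic genes, ordered by size; points are limma estimates with n = 2 arrays per genotype and bars are 95% intervals. Dotted lines mark a 2-fold change; all bars but that of Rps13 lie inside them, and all but that of Rps13 cross 0.

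Genotypes that did not overlap were about as frequent among the members as in the background on the lower side, and less frequent on the higher side; these shares were not tested. Both mutant arrays lay below both wild-type arrays in 8 of 54 cytosolic and 14 of 92 mitochondrial probe sets, where 11.8% of all tested probe sets did so. Both lay above in 1 cytosolic and 4 mitochondrial probe sets, where 11.4% did so. On the brightest probe set of each gene, 7 cytosolic and 9 mitochondrial genes lay apart on the lower side and 1 of each on the higher side. Over all genes tested, 12.1% lay apart on the lower and 12.2% on the higher side.

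The mitochondrial genes showed a weaker lean. The mutant mean was lower in 43 of 73 genes and higher in 30, with a median of -0.03 and a range from -0.22 to 0.17. The small subunit had 14 of 25 lower (median -0.02) and the large subunit 29 of 48 (median -0.05). The SD of the arrays' median deviations within a genotype was 0.06, larger than the median difference. Mutant replicate 2 was the lowest array in 37 of 73 genes (50.7%), and without it 33 of 73 were lower and the median was 0.02. Without mutant replicate 1, 53 of 73 were lower and the median was -0.07. The direction of the mitochondrial median thus depended on which mutant array was kept.

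Mrpl18, of the large subunit, had the most negative difference among the mitochondrial genes. It read 12.06 and 12.00 in wild type and 11.79 and 11.83 in the mutant, with a gap between genotypes wider than the spread within either. The difference was -0.22 ± 0.07 (SE, n = 2 per genotype), with a 95% interval from -0.44 to 0.01. Both mutant arrays were low, and leaving out any 1 array kept the difference between -0.25 and -0.19. Limma's adjusted p was 1.

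Mrpl50, a large-subunit protein with no bacterial counterpart, was lower on both of its probe sets. The brighter one read 10.74 and 10.70 in wild type and 10.68 and 10.36 in the mutant (-0.20 ± 0.14), and most of that came from mutant replicate 2. The dimmer one read 9.42 and 9.15 against 8.88 and 8.76 (-0.47 ± 0.13, 95% interval from -0.88 to -0.07). The groups did not overlap on either.

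Mrpl35 read 11.18 and 11.43 in wild type and 11.16 and 11.05 in the mutant (-0.20 ± 0.13). Mrpl49 read 11.74 and 11.72 against 11.66 and 11.48 (-0.16 ± 0.10), and its other probe set differed by -0.15. Mrpl44, which resembles RNase III, read 9.40 and 9.33 against 9.32 and 9.23 (-0.09 ± 0.08). All 3 belong to the large subunit, had the mutant arrays below the wild-type arrays, and had their lowest value in mutant replicate 2.

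On the small subunit, Mrps6 read 11.08 and 10.96 in wild type and 10.95 and 10.71 in the mutant (-0.19 ± 0.13). Mrps26 read 11.18 and 11.24 against 11.02 and 11.17 (-0.12 ± 0.09). Mrps26 was lowest in mutant replicate 1 and Mrps6 in mutant replicate 2, and in each the nearest arrays of the genotypes almost met.

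Mrpl19, of the large subunit, was the single mitochondrial gene with both mutant arrays above both wild-type arrays on its brightest probe set. It read 10.91 and 10.99 in wild type and 11.11 and 11.06 in the mutant (0.13 ± 0.08). Mrpl12, the stalk protein that also binds the mitochondrial RNA polymerase, read 12.70 and 12.75 against 12.78 and 12.70 (0.02 ± 0.08). Its dimmer probe set differed by 0.20.

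Mrpl3, Mrps16 and Mrps22, mutated in inherited deficiencies of oxidative phosphorylation, had overlapping groups. Mrpl3 read 12.24 and 12.28 in wild type and 12.27 and 12.12 in the mutant (-0.07 ± 0.09). Mrps16 read 10.29 and 10.37 against 10.31 and 10.24 (-0.06 ± 0.08). Mrps22 read 10.74 and 10.70 against 10.70 and 10.58 (-0.08 ± 0.08). In all 3 the lowest array was mutant replicate 2.

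Mrps12, the counterpart of the bacterial decoding-site protein S12, read 10.58 and 10.73 in wild type and 10.84 and 10.63 in the mutant (0.08 ± 0.12). The highest array was mutant replicate 1, and the other mutant array lay between the wild-type arrays.

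**Figure D5:**
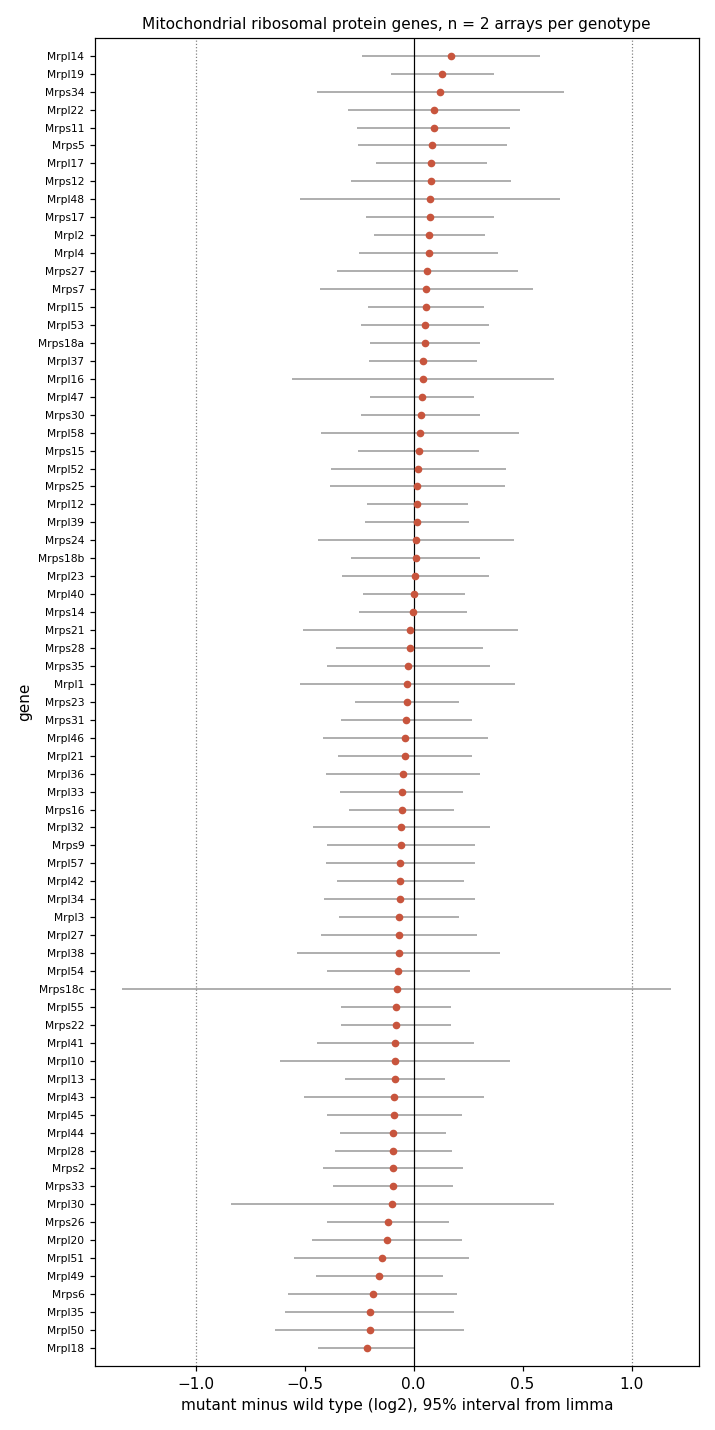
Difference between genotypes (mutant minus wild type, log2, horizontal axis) for the 73 mitochondrial genes, ordered by size; points are limma estimates with n = 2 arrays per genotype and bars are 95% intervals. All bars cross 0, and all but that of Mrps18c lie inside the dotted lines of a 2-fold change.

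Several probe sets were tested for 21 member genes, and all of them had the same sign in 13. The direction differed between probe sets of Mrpl10, Mrpl40, Mrpl51, Mrpl52, Mrpl57, Mrps27, Rpl14 and Rpsa. In 14 of the 21 genes the probe sets of the gene differed by more than 0.1. Mrps18c, chosen here after its values were seen, illustrates it. Its brightest probe set read 11.05 and 10.65 in wild type and 11.25 and 10.30 in the mutant (-0.08 ± 0.41), while a dimmer one read 8.50 and 8.54 against 8.31 and 8.31 (-0.21 ± 0.07).

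Differences were also set out by the C/T run near the annotated start. Of the cytosolic genes with a promoter entry and a tested probe set, 21 of 27 with a run were lower (median -0.04), and 12 of 13 without one were lower (median -0.05). Among mitochondrial genes the counts were 9 of 15 (median -0.05) and 26 of 44 (median -0.03). The difference between genes with and without a run was not tested.

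The genes that build and use ribosomes were taken from lists chosen by function. Of 71 tested assembly and nucleolar factors, 39 were lower and 32 higher (median -0.01), and 0 passed the adjusted threshold. The lowest were Mphosph10, of the small-subunit processome (-0.24 ± 0.13), and Rrp15, of large-subunit maturation (-0.22 ± 0.17). The highest were the helicase Ddx56 (0.23 ± 0.11) and Nle1, of large-subunit maturation (0.21 ± 0.10). Of 29 genes of RNA polymerases I and III and their factors, 12 were lower and 17 higher (median 0.02). Polr3f, a subunit of RNA polymerase III, read 8.17 and 8.16 in wild type and 8.49 and 8.56 in the mutant (0.36 ± 0.07, adjusted p = 1 by limma). It was the single gene of its list at an unadjusted p under 0.05, where 1.74% of all tested probe sets were higher and 1.91% lower. Polr3a, the largest subunit of that enzyme, differed by 0.18 ± 0.18 and Polr3b, the second largest, by -0.16 ± 0.24. Polr2l, a small subunit common to all nuclear RNA polymerases, differed by -0.22 ± 0.08.

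Cytosolic translation factors were evenly split, with 18 of 32 lower (median -0.0035). They ran from the subunit-joining factor Eif5b (-0.18 ± 0.30) to the release factor Gspt1 (0.13 ± 0.12). The initiation factor genes Eif2s3 (-0.08 ± 0.09) and Eif3f (0.12 ± 0.07) came next at either end. The 3 tested proteins that associate with cytosolic ribosomes but fall outside the symbol rule (Rack1, Naca and Nop53) had higher mutant means, with a median of 0.02. Nop53, of large-subunit assembly, differed by 0.10 ± 0.07 and Naca, which binds the emerging chain, by 0.02 ± 0.08. Of 7 mitochondrial ribosomal proteins and associated proteins outside the symbol rule, 4 were lower (median -0.002), and the lowest 2 were the associated proteins Oxa1l and Slirp. The list included the membrane insertase Oxa1l (-0.08 ± 0.13), which docks mitochondrial ribosomes, and ran up to Chchd1 of the small subunit (0.08 ± 0.17). Slirp differed by -0.05 ± 0.08 and Gadd45gip1, a large-subunit protein, by 0.06 ± 0.09. None of these genes passed the adjusted threshold.

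Mitochondrial translation and gene expression factors had 13 of 23 tested genes lower and a median of -0.01. Tsfm, the mitochondrial elongation factor Ts, differed by -0.21 ± 0.16, and Gtpbp10, a GTPase of mitochondrial large-subunit assembly, by -0.17 ± 0.07. Twnk, the mitochondrial DNA helicase Twinkle, read 8.51 and 8.66 in wild type and 9.12 and 9.09 in the mutant (0.52 ± 0.09, adjusted p = 1 by limma). It was the single gene of the list at an unadjusted p under 0.05, where 1.74% of all tested probe sets were higher and 1.91% lower. Polrmt, the mitochondrial RNA polymerase, differed by 0.53 ± 0.53, with an SD of 0.70 between the wild-type and 0.65 between the mutant arrays.

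The regulators of ribosomal protein synthesis were 9 lower and 10 higher of 19 (median 0.0041). Eif4ebp1, the translation inhibitor that mTOR phosphorylates, read 10.02 and 10.07 in wild type and 9.59 and 9.84 in the mutant (-0.33 ± 0.12). Larp1, which binds TOP messages, read 11.55 and 11.58 against 11.72 and 11.94 (0.27 ± 0.11). Mycn, a transcription factor of growth genes, differed by -0.16 ± 0.09. Genotypes did not overlap in these 3 genes. Rptor, a partner of mTOR, differed by 0.21 ± 0.16 with overlap, and limma's adjusted p was 1 for all 4. Across the 19 regulators, 5 lay apart on the lower side and 1 on the higher side. The shares over all genes tested were 12.1% and 12.2%.

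Genes of the p53 response to free ribosomal proteins were lower in 7 of 9 tested (median -0.08), where 49.1% of all genes tested were lower. The list holds both genes that p53 activates and the p53 inhibitor Mdm4, so the count gives no direction of the response. Aen, a nuclease gene that p53 activates, differed by -0.28 ± 0.20, and Mdm4, an inhibitor of p53, by -0.26 ± 0.25. Bbc3, which promotes cell death under p53, differed by 0.25 ± 0.32. Plk2, a kinase gene that p53 activates, read 7.90 and 7.93 in wild type and 8.36 and 8.31 in the mutant (0.42 ± 0.07, adjusted p = 1 by limma). It was the single gene of the list at an unadjusted p under 0.05, where 1.74% of all tested probe sets were higher and 1.91% lower. Genotypes were also apart, on the lower side, in Cdkn1a (-0.21 ± 0.09), chosen here after its values were seen. Over all genes tested, 12.1% lay apart on the lower and 12.2% on the higher side.

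Cell makeup was followed through marker lists. In bulk tissue, fewer cells of a type and less RNA per cell cannot be told apart. The telencephalic markers were present, with 5 of 6 on the array and all 5 tested. The summed level of this list (log2 of the summed linear values) was 13.84 to 13.90 in wild type and 13.98 to 14.12 in the mutant, and 4 of 5 members were higher. This sum is led by Sox2, a stem cell transcription factor, which read 13.60 and 13.51 in wild type and 13.86 and 13.69 in the mutant. Six3 was also higher in both mutant arrays, Emx2 was lower in both, and Nes and Hes5 overlapped. Red cell markers were higher in 6 of 7, with sums of 16.03 to 16.05 against 16.24 to 16.25. Endothelial markers were higher in 6 of 6, with sums of 11.40 to 11.41 against 11.58 to 11.77. Mesenchymal markers were lower in 4 of 5 tested, with sums of 12.84 to 12.87 against 12.50 to 12.78, and the sixth, Dcn, was dim. The summed surface ectoderm markers overlapped between genotypes (8.58 to 8.84 against 8.47 to 8.58), with 2 of 5 higher and 3 lower. Genotypes were apart for the epithelial genes Krt18 (-0.73) and Epcam (-0.92) and, in the opposite direction, Cdh1 (0.59). The summed neuronal markers overlapped too (9.72 to 10.11 against 9.92 to 10.12), with 3 of 5 higher, and genotypes were apart for Dcx (0.51) and Stmn2 (0.36). Limma's adjusted p was 1 for each of these 5 genes, and 12.1% of all genes tested lay apart on the lower and 12.2% on the higher side. The part of these cell types in the ribosomal protein values was not tested. Pax6 itself read 11.75 and 11.85 in wild type and 11.78 and 11.63 in the mutant (-0.09 ± 0.10), so its level does not check the genotype labels.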

How the data were processed

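The deposited table gives log2 values per probe set and array. Per the submitters' processing notes the tool was GCRMA, and no version is given in the sources used here. It corrects background by probe sequence and normalizes between arrays, so a shift shared by all genes cannot be seen. The values ran from 2.07 to 16.13 and were not normalized again. Arrays give no read depth, and their number limits the precision. limma 3.58.1 (R 4.3.3) fitted genotype to 18625 probe sets with lmFit and eBayes, after being tested on simulated data, with Benjamini-Hochberg adjustment over all of them and a threshold of 0.05. No exact permutation test was run, since 2 arrays against 2 give a smallest two-sided p of 0.333. Probe sets were named from the platform annotation when it gave 1 symbol (20826 of 31042).

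Named members were, per family, any past the adjusted threshold, up to 6 genes per direction with the largest difference among those whose genotypes did not overlap, and a set chosen for known roles; of the other lists, the 2 most extreme genes per direction were eligible. The members and lists were chosen with earlier results of these data known. Alternatives were no filter and a stricter one, a pseudocount of 16, quantile normalization, median centring, a variance trend, a replicate block and leaving out each array; the lists set beside the members with arrays left out, the level limit of 14 and the probe sets with several symbols were added after seeing the data.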

Additional observations from a re-analysis of the deposited data

How the results depend on the processing

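The number of probe sets past the adjusted threshold was 0 as reported (680 at an unadjusted p under 0.05), 1 with the stricter filter (60th percentile), 2 with quantile normalization and 2 with median centring, and none of these was a member. Member probe sets at an unadjusted p under 0.05 numbered 3 as reported, 1 with the stricter filter and 1 with median centring. Those lower in the mutant numbered 4 with the pseudocount of 16 and 2 with quantile normalization. With the replicate block, 0 probe sets passed (1194 at an unadjusted p under 0.05), and 2 members lay at an unadjusted p under 0.05. Each replicate number occurs once per genotype, so the medians of -0.04 and -0.03 were the same by construction. Same-numbered arrays deviated together over all tested probe sets (r = 0.43 across probe sets, which are not independent). With 2 pairs the numbers were not taken as a pairing. Leaving out 1 array moved the cytosolic median between -0.060 and -0.0058 (the latter without mutant replicate 2) and the mitochondrial median between -0.07 and 0.02. Of 28 named members, 19 kept their sign in every setting that tested them, as did 21 of 30 other named genes. The settings numbered 11, or 10 where the stricter filter removed the gene. Members named because their genotypes did not overlap cannot change sign when an array is left out. The 2 filter settings, the variance trend and the replicate block cannot change any difference. The counts of kept signs are therefore in part set by the selection and do not measure stability. Rps6 turned to 0.0026 with quantile normalization. With an array left out, these differences changed sign, from lowest to highest: Rps6 -0.087 to 0.044, Rps27l -0.44 to 0.17, Rpl3 -0.063 to 0.0084, Rpl5 -0.12 to 0.017, Rpl39 -0.20 to 0.36, Rpl7l1 -0.22 to 0.11, Mrpl3 -0.14 to 0.0086, Mrpl12 -0.019 to 0.053, Mrps12 -0.027 to 0.18, Eif5b -0.54 to 0.17, Mdm4 -0.56 to 0.037, Bbc3 -0.057 to 0.55, Polr3a -0.030 to 0.38, Polr3b -0.44 to 0.13, Naca -0.036 to 0.078, Oxa1l -0.20 to 0.034, Chchd1 -0.11 to 0.27 and Gadd45gip1 -0.0088 to 0.12. The cause was not tested. The number of arrays limits what single members can show.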
